A study of Mus musculus with 6 samples.

Results

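FGF9 and the genes through which cells receive and limit its signal were followed across the cell types of fetal mouse gonads. The members were 9 genes taken by symbol, *Fgf9*, *Fgf18*, *Fgfr1*, *Fgfr2*, *Fgfr3*, *Spry1*, *Spry2*, *Spry4* and *Dusp6*, of 26251 genes listed in any library, and all 9 were listed in every library. Gonads of embryos at E15.5 were dissociated, frozen, thawed and profiled on the 10x Genomics platform in 6 libraries, 2 biological replicates for each of 3 groups, with gonad pairs of the same animals pooled. Control XY testes and control XX ovaries were *Amh*+/+; *Inhbb*+/+ and dKO XY gonads were *Amh*-/-; *Inhbb*-/-, which lack both functional copies of the genes for AMH and for the beta B subunit of activin B. No sex-matched XX gonads of the dKO genotype and no single knockout were among the libraries, so the loss of either factor alone and the loss in XX gonads were not analysed here.

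FGFs are secreted proteins that bind FGF receptor tyrosine kinases together with heparan sulfate and signal in large part through the RAS and ERK kinases. FGF9 is made by Sertoli cells, promotes the testis fate of supporting cells in the early XY gonad and acts there through FGFR2, while WNT4, a signal of the ovary, opposes it. FGF18 belongs to the same ligand subfamily as FGF8. The Sprouty proteins and DUSP6, an ERK phosphatase, are induced by ERK signalling and damp it, so that their transcripts are commonly read as a sign of recent signal through the pathway, from FGF receptors or from other receptors that use ERK.

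Supporting cells of dKO XY gonads held 4.88 times the *Fgf9* transcript of control XY supporting cells. Their *Fgfr2*, low in Sertoli cells and high in granulosa cells, lay between the 2 control sexes. The feedback genes *Spry4* and *Dusp6*, which separate XY from XX supporting cells by a wide margin, were not called changed in dKO XY supporting cells. Set against the change in interstitial cells of the same libraries, their change differed by -0.58 and -0.77 on the log2 scale. Both differences were called and include the change of the interstitial cells, and the call of *Spry4* did not hold in all settings.

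All 9 genes lie on different stretches of 8 chromosomes of the mm10 assembly, the build of the deposited tables. *Fgf9* spans bases 58070547 to 58112720 of chromosome 14 on the plus strand, and *Spry2* lies on the minus strand of the same chromosome from 105891947 to 105896819. The annotation places *Fgf18* at 33117430 to 33147400 of chromosome 11, minus strand. *Fgfr1* occupies 25513654 to 25575718 of chromosome 8, plus strand, and *Fgfr2* 130162451 to 133123350 of chromosome 7, minus strand. *Dusp6* runs from 99263231 to 99267489 of chromosome 10 on the plus strand. A UMI counts a transcript caught at its poly(A) tail, so a level sums over all isoforms, among them the receptor splice forms that bind different ligands.

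The bases before the start site are shown for the 2 ligands, which rose together in dKO XY supporting cells, for *Fgfr2* and for *Dusp6*. Each line gives the 250 bases that end at the base before the RefSeq start in GRCm38.p6, 5′ to 3′ on the strand of the gene. Capitals mark matches on either strand to GTCTG, a core bound by SMAD proteins, to AACAAT, a core bound by SOX proteins, or to CCGGAA, a core bound by ETS factors.
Fgf9, chr14:58072436-58072685, plus strand: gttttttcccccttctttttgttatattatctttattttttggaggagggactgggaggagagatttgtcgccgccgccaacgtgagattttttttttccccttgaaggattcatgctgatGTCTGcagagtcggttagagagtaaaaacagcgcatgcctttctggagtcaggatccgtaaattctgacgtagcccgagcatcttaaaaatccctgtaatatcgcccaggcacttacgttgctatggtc
Fgf18, chr11:33147401-33147650, minus strand: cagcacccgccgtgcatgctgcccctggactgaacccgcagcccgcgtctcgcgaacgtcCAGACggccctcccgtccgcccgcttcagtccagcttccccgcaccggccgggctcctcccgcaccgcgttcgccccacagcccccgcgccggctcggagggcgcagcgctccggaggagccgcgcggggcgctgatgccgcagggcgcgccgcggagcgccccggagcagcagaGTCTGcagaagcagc
Fgfr2, chr7:130266809-130267058, minus strand: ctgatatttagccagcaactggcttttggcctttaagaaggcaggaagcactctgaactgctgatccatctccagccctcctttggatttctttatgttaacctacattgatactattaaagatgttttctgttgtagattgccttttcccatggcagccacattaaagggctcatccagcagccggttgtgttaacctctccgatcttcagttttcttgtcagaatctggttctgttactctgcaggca
Dusp6, chr10:99262981-99263230, plus strand: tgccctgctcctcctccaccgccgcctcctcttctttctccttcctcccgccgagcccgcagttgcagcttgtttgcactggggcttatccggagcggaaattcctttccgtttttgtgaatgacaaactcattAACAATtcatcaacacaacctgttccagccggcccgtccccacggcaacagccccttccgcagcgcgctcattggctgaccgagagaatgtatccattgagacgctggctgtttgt
The SMAD core was found once before *Fgf9*, 129 bases from the start, and at 190 and 15 bases before *Fgf18*. It was in 42.2% of 32851 promoters of the same length. The SOX core was found in the *Dusp6* window, 116 bases before the start, and in 9.42% of all promoters, and the ETS core, present in 12% of all promoters, was in none of these 4 windows. *Fgf9* has 4 annotated transcript starts, *Fgfr2* 14, *Dusp6* 3 and *Fgf18* 2. The windows of *Fgf18* and *Dusp6* end at the base before the annotated gene. Those of *Fgf9* and *Fgfr2* lie within the annotated gene, and whether they end at an annotated start was not checked. For 7 of 8 promoters of the members, bases after the start lay in a transcript of the gene on the same strand.

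Cells were filtered by gene number, mitochondrial share and haemoglobin share and clustered again with the FGF genes left out of the variable genes, which gave 39350 cells with a median of 18415 to 27124 UMIs per cell. At least 25% mitochondrial UMIs were found in 4.50% and 7.65% of control XY barcodes, 24.4% and 28.3% of dKO XY and 9.35% and 2.22% of control XX. The filter kept 74.6% and 68.2%, 51.1% and 45.8%, and 53.2% and 60.4% of barcodes. The part of this gap between genotypes in the results was not tested. Supporting cells were 258 and 533 for control XY, 1291 and 963 for dKO XY and 2980 and 1165 for control XX. The cluster led by *Cst9*, *Dhh* and *Ptgds* held all XY supporting cells of the controls and most of dKO XY, while the cluster led by *Fst*, *Irx3* and *Foxl2* held nearly all of control XX, so a difference between the sexes is also a difference between clusters. *Amh* stood at 2060 and 1918 CPM (counts per 10 to the power of 6 UMIs of the same cells) in control XY supporting cells, 17.9 and 15.7 for dKO XY and 1.37 and 1.43 for control XX, and *Inhbb* at 163 and 185, 41.6 and 50.5, and 37.4 and 25.02. *Amh* followed the labels, and *Inhbb* was lower in dKO XY than in control XY without reaching 0. The second dKO XY library stood apart: the summed level of 12 genes induced by cell dissociation, none at 0 in supporting cells, was 0.301 to 0.503 times that of the first dKO XY library in all 8 cell types compared, against ratios of 0.986 to 1.22 between the control XY libraries. Between the control XX libraries the ratios ran from 0.8001 to 2.56. Calls of members that changed without the second dKO XY library are given beside the results. Of the cell barcodes, 175 occurred in more than 1 library. In sums per cell type, fewer expressing cells and less RNA per cell cannot be told apart.

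Fgf9, the ligand, was higher in dKO XY supporting cells than in either control. The level was 6.54 and 7.53 CPM for the control XY libraries, 38.9 and 30.3 for dKO XY and 3.95 and 3.75 for control XX. Both dKO XY values were above all control values, and both control XY values above both control XX values. The germ markers in supporting cells were also highest in dKO XY, at a summed 157 and 224 CPM. They were at 76.7 and 23.0 for control XY and 95.9 and 132 for control XX, and their part in this result was not tested. The rise over control XY was 2.29 ± 0.18 on the log2 scale (SE, n = 2 libraries per group, edgeR's quasi-likelihood test with Benjamini-Hochberg adjustment over all genes, adjusted p = 3.43e-05), or 4.88-fold. Control XX was lower than control XY by a smaller step, a log2 change of -0.93 ± 0.18 (adjusted p = 0.00217). Without the second dKO XY library the rise was 2.43 (adjusted p = 1.96e-05).

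*Fgf18* moved the same way with a wider spread. Its levels were 15.6 and 7.72 CPM for control XY, 27.0 and 18.8 for dKO XY and 5.08 and 4.70 for control XX. The 2 control XY libraries differed from each other about as much as dKO XY from control XY, although no values of the groups overlapped. The rise in dKO XY was 1.03 ± 0.29 (adjusted p = 0.0357) and the call ended without the second control XY library (log2 change of 0.55, adjusted p = 0.253) and without the first dKO XY library (0.77, adjusted p = 0.13). In control XX the log2 change against control XY was -1.25 ± 0.30 (adjusted p = 0.00663), and -0.72 without the first control XY library (adjusted p = 0.0506).

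Of the receptors, *Fgfr2* gave the steepest gradient between the groups. It measured 8.52 and 5.81 CPM for control XY supporting cells, 19.6 and 28.1 for dKO XY and 98.9 and 82.9 for control XX. Immune cells, read here as the background of free RNA, had 7.54 and 5.49 CPM for control XY, close to its supporting levels. Those of dKO XY had 10.1 and 6.59 CPM. Sertoli-like cells of control XY, a part of its supporting cells described further on, had less, at 3.32 and 2.79 CPM. The immune level of *Fgfr2* is therefore no floor, and whether immune cells make the transcript was not tested. The supporting levels of the groups did not overlap, and dKO XY stood between the sexes. The granulosa markers in these cells moved in the same order, at a summed 62.4 and 30.3, 420 and 483, and 2449 and 2215 CPM. So did the epithelial markers, at 8.40 and 7.02, 12.5 and 14.7, and 43.8 and 58.2 CPM. The interstitial list ran the opposite way, and the germ and dissociation lists did not follow this order. The part of these lists was not tested. The log2 change in dKO XY was 1.79 ± 0.24 (adjusted p = 0.000833, 3.46-fold) and in control XX 3.66 ± 0.24 (adjusted p = 1.42e-06, 12.6-fold), and dKO XY remained below control XX by -1.87 ± 0.20 (adjusted p = 6.32e-05).

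*Fgfr1*, the receptor of the interstitium, had sums over all supporting cells of 13.2 and 16.02 CPM for control XY, 11.6 and 14.2 for dKO XY and 17.0 and 14.9 for control XX. These values overlapped and no change was called in dKO XY (-0.19 ± 0.17, adjusted p = 0.54) or control XX (0.06 ± 0.17, adjusted p = 0.781). The sums hide a difference between the cells within them: Sertoli-like cells of control XY, which were the larger share of its supporting cells and are described further on, had 3.15 and 4.27 CPM from 19 of 107 and 52 of 251 UMIs, and granulosa-like cells of control XX had 16.7 and 13.4, without overlap and with no test. In control XX a rise was called with cells of more than 1500 genes (0.65, adjusted p = 0.016) and without cells scored as doublets (0.61, adjusted p = 0.0318). *Fgfr3* was rare in supporting cells, at 1.73 and 1.85, 1.26 and 2.23, and 1.11 and 0.92 CPM, and was not called either (log2 change of -0.04 ± 0.38 in dKO XY, adjusted p = 0.966).

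Among the feedback genes, *Spry4*, *Dusp6* and *Spry1* were lower in control XX than in control XY, and none was called between dKO XY and control XY. *Spry4*, an inhibitor of RAS and ERK signalling downstream of receptor tyrosine kinases, was at 13.6 and 15.2 CPM for control XY, 15.1 and 16.8 for dKO XY and 0.825 and 1.94 for control XX. The XY groups ran together and control XX lay far below both, by -3.59 ± 0.32 on the log2 scale against control XY (adjusted p = 1.03e-05). *Dusp6* was at 116 and 109 CPM for control XY, 116 and 57.0 for dKO XY and 18.2 and 24.6 for control XX. The first dKO XY library lay beside the controls and the second lay below them and above control XX. No change was called in dKO XY (-0.37 ± 0.27, adjusted p = 0.413), with a log2 change of 0.03 without the second dKO XY library (adjusted p = 0.956) and of -0.95 without the first (adjusted p = 0.00698), while control XX was lower than control XY by -2.45 ± 0.28 (adjusted p = 6.46e-05).

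*Spry1* was at 14.8 and 12.1 CPM for control XY, 12.9 and 6.87 for dKO XY and 2.49 and 6.44 for control XX. The dKO XY values overlapped the range of control XY, and the values of control XX were the lowest. Immune cells had 7.54 and 12.1 CPM for control XY and 17.8 and 12.1 for dKO XY. Those of control XX had 0 UMIs in the first library, which allows up to 4.34 CPM, and 7.02 CPM in the second. The supporting level was above the immune level in the first control XY library only. Sertoli-like cells had less than immune cells, at 5.64 and 4.19 CPM for control XY and 5.74 and 4.29 for dKO XY. The immune level of *Spry1* is therefore no floor of free RNA, and whether immune cells make the transcript was not tested. The change was called for control XX (-1.70 ± 0.42, adjusted p = 0.00747) and not for dKO XY (-0.43 ± 0.40, adjusted p = 0.545). The 8 interstitial markers moved with it, with a summed level of 793 and 930 CPM in supporting cells of control XY, 484 and 401 for dKO XY and 186 and 347 for control XX, and their part in the result was not tested. *Spry2* was at 21.5 and 23.2, 34.6 and 20.02, and 32.3 and 55.6 CPM, overlapping between the XY groups. It was higher in control XX than in control XY (0.91 ± 0.28, adjusted p = 0.0227), a call that ended without the second control XX library (0.50, adjusted p = 0.15) and without either control XY library, and the dissociation list moved with it, at 6181 and 6290 CPM for control XY and 12163 and 12320 for control XX.

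**Figure D1:**
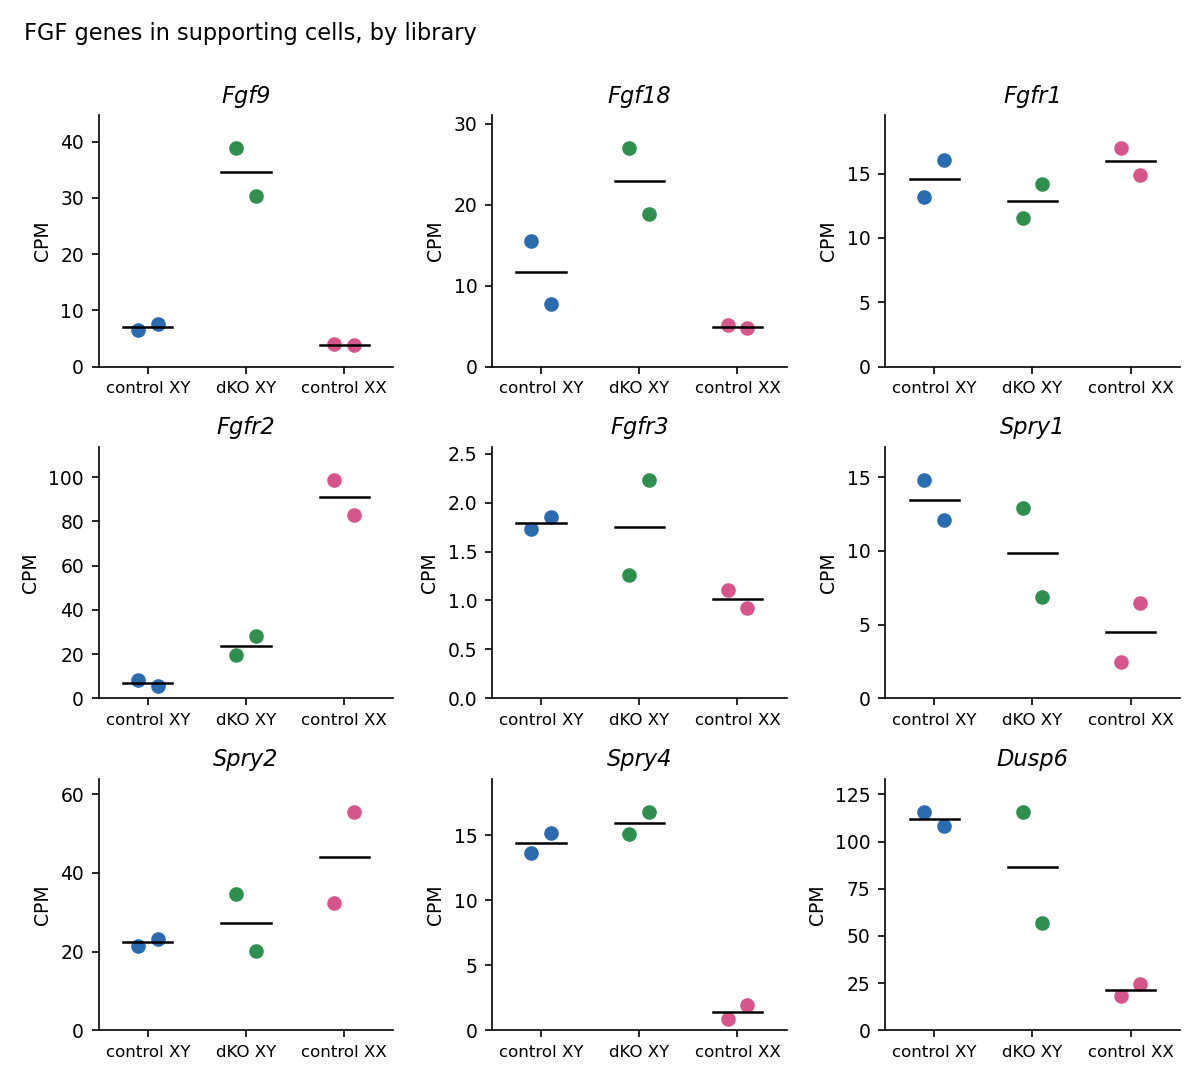
Level of the 9 genes in supporting cells, in CPM, with 1 point per library and the mean of the 2 libraries of a group as a line. *Fgf9* and *Fgf18* are highest in dKO XY, *Fgfr2* rises from control XY through dKO XY to control XX, and *Spry4* and *Dusp6* are lowest in control XX.

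Counted over the members, 3 of 9 were called in supporting cells of dKO XY against control XY, all higher, where 16.8% of 15939 genes tested were called. The median log2 change of the 9 was 0.15 and that of all genes 0.02. Between control XX and control XY 7 of 9 were called, 2 higher and 5 lower, against 49.2% of all genes, with medians of -0.93 and 0.03. Between dKO XY and control XX 6 of 9 were called, 5 higher and 1 lower, against 41.3% of all genes, with medians of 1.28 and -0.01, and *Fgf9* was 9.31-fold higher in dKO XY there. The 3 comparisons share their libraries in pairs and are not independent of each other.

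The rest of the FGF pathway was read from a list of 85 other genes, of which 73 were tested in supporting cells. In dKO XY 10 were higher, 6 lower and 57 not called, beside 16.8% called over all genes, with a median log2 change of 0.03. Of 9 tested feedback inhibitors 4 were higher and none lower, among them *Rasa3*, a RAS GTPase activating protein (1.12 ± 0.16), and *Dusp5*, an ERK phosphatase of the nucleus. *Dusp5* rose from 21.6 and 24.3 CPM for control XY to 118 and 50.4 for dKO XY (1.87 ± 0.36, adjusted p = 0.0063). The dissociation list in these cells was at 6181 and 6290 CPM for control XY and 8744 and 3332 for dKO XY. Its part in the level of *Dusp5* was not tested. Of 12 genes known to be induced by ERK 2 were higher and none lower, a share near the 16.8% over all genes. *Ccnd1*, the G1 cyclin D1, had 5.93 and 3.45 CPM for control XY, 69.2 and 101 for dKO XY and 15.2 and 10.9 for control XX, a rise of 4.27 ± 0.30 (adjusted p = 2.35e-05), and *Phlda1* rose by 1.38 ± 0.20 (adjusted p = 0.00129). None of 18 adaptors and kinases between receptor and ERK was called by edgeR in dKO XY.

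Of 18 genes of heparan sulfate, the co-receptor sugar of FGFs, 3 were higher, 2 lower and 13 not called in dKO XY supporting cells, with a median of -0.12, where 16.8% of all genes were called. *Sulf1* and *Sulf2* encode the 2 extracellular sulfatases that trim it. *Sulf1* was at 4.82 and 5.04 CPM for control XY, 43.5 and 53.5 for dKO XY and 207 and 154 for control XX, whereas *Sulf2* ran the other way, at 41.7 and 53.4, 24.5 and 25.2, and 9.42 and 12.4 CPM. dKO XY lay between the sexes for both, with log2 changes from control XY of 3.30 ± 0.21 (adjusted p = 1.32e-05) and -0.94 ± 0.16 (adjusted p = 0.00375). *Hs6st2*, a 6-O-sulfotransferase, rose by 1.04 ± 0.19 in dKO XY, and *Gpc1*, a glypican core protein, changed by -1.19 ± 0.14. *Fgfrl1*, a receptor without a kinase domain, changed by -0.55 ± 0.11.

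Within the supporting cells the ligand and its receptor were highest in different subclusters. Cells whose log-normalised *Sycp3* or *Tcf21* level was 1 or more were set aside, and cells with less of either transcript stayed in. Reclustering the rest gave 5 subclusters, of which 2 were led by Sertoli markers, 2 by granulosa markers and 1 by Leydig markers. The Sertoli-like cells numbered 190 and 408 for control XY and 677 and 424 for dKO XY, and the larger of their subclusters also held germ cell transcripts such as *Dppa5a* and *Dppa3*. An unnamed subcluster of 431 and 443 dKO XY cells, numbered 3, with 11 and 25 control XY cells, was led by Leydig and interstitial markers relative to other supporting cells and carried granulosa markers at a summed 740 and 749 CPM, against 752 and 124 for the few control XY cells of the same subcluster and 159 and 197 for dKO XY Sertoli-like cells. Of those led by granulosa markers, the one numbered 1 rested on 2 detected markers, was left unnamed and held 44 and 16 dKO XY cells beside 996 and 336 of control XX.

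*Fgf9* was carried by the Sertoli-like cells. It measured 6.97 and 9.03 CPM in those of control XY and 58.9 and 50.4 in those of dKO XY, but 11.7 and 10.6 for dKO XY cells of subcluster 3, 3.34 and 8.54 in those of subcluster 1 and 3.41 and 2.81 in granulosa-like cells of control XX. In the first dKO XY library 21 granulosa-like cells had 3.98 CPM from 2 UMIs, and the second held 9 such cells, under the minimum of 10 used here. Within dKO XY the Sertoli-like values were above those of subclusters 3 and 1 in each library. *Fgfr2* was lowest in Sertoli-like cells, at 4.61 and 8.52 CPM for dKO XY Sertoli-like cells, 35.8 and 45.7 in subcluster 3, 85.2 and 111 in subcluster 1, 53.7 in the granulosa-like cells of the first dKO XY library and 102 and 89.7 in those of control XX. *Dusp6* differed by library more than by subcluster in dKO XY, with 119 and 56.1 CPM in Sertoli-like cells, 121 and 58.2 in subcluster 3 and 66.0 and 35.9 in subcluster 1. Since the subclusters come from the same cells, these orders are a description with no test.

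**Figure D2:**
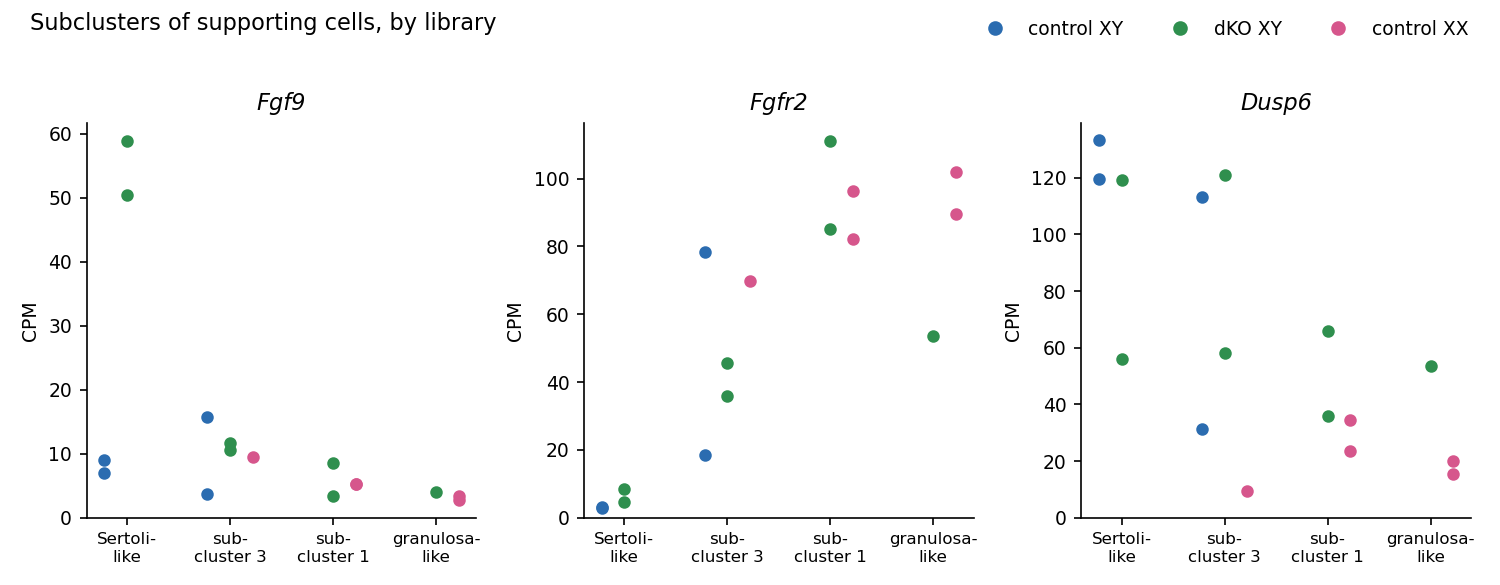
Level (CPM) of *Fgf9*, *Fgfr2* and *Dusp6* in 4 divisions of the supporting cells, with 1 point per library of at least 10 cells, coloured by group. *Fgf9* is above 50 CPM in the Sertoli-like cells of both dKO XY libraries and below 16 CPM in every other point, *Fgfr2* is lowest in Sertoli-like cells, and *Dusp6* differs between the 2 dKO XY libraries in the Sertoli-like cells and in subclusters 3 and 1.

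Compared between genotypes, Sertoli-like cells of dKO XY had a larger rise of *Fgf9* than all supporting cells together. The log2 change was 2.70 ± 0.17 (6.48-fold, adjusted p = 7.31e-06), and it was 2.73 when subclusters drawn at a finer resolution set the cells with germ cell transcripts apart. *Fgf9* had at least 1 UMI in 60.7% and 70.5% of dKO XY Sertoli-like cells against 17.4% and 20.1% of control XY, and in 2.73% and 5.88% of dKO XY immune cells, which serve here as the background of free RNA. Thinned to 5000 UMIs per cell, with no cell left out, the shares were 23.3% and 21.9%, 3.73% and 5.36%, and in dKO XY immune cells 0.471% and 1.1%. Median depths in Sertoli-like and immune cells were 25312 and 23861 UMIs in the first dKO XY library and 37437 and 24004 in the second.

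In the same cells *Fgf18* rose by 1.10 ± 0.31 (adjusted p = 0.0375), from 18.1 and 8.78 to 35.03 and 21.5 CPM. That call ended without the second control XY library (0.58) and in DESeq2 (1.03, adjusted p = 0.37). The fit of Sertoli-like cells held XY libraries only, so leaving out a library left its group with no spread of its own. *Fgfr1* rose from 3.15 and 4.27 to 6.92 and 10.4 CPM (1.14 ± 0.29, adjusted p = 0.0248), and the part of free RNA in this rise was not tested. The call of *Fgfr1* ended without the second dKO XY library (0.79), without the second control XY library and with all variable genes in the clustering. *Fgfr2* had 3.32 and 2.79 CPM for control XY and 4.61 and 8.52 for dKO XY and missed the threshold (1.08 ± 0.36, adjusted p = 0.0698). Immune cells had *Fgfr2* at 7.54 and 5.49 CPM for control XY and 10.1 and 6.59 for dKO XY. Only in the second dKO XY library did Sertoli-like cells lie above them. The change passed the threshold under 5 of 12 other settings and was 0.55 without the second dKO XY library. *Spry2*, at 20.1 and 18.7 CPM for control XY and 31.5 and 18.9 for dKO XY, was not called (0.34, adjusted p = 0.377). It passed the threshold without the second dKO XY library (0.64). *Dusp6* was at 133 and 120 CPM for control XY and 119 and 56.1 for dKO XY (-0.58 ± 0.26, adjusted p = 0.193). Its change was -0.15 without the second dKO XY library and -1.19 without the first. Both dKO XY values were below both control values, by little in the first library. The germ marker list moved with genotype in these cells, at 99.9 and 27.1 CPM for control XY and 241 and 338 for dKO XY, and the granulosa list moved too, at 26.4 and 26.9 CPM for control XY and 159 and 197 for dKO XY, without overlap. The part of either list in these results was not tested.

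Of the 9 members 3 were called in Sertoli-like cells, all higher, against 14.6% of 13741 genes, with a median log2 change of 0.73 over the 9. Of the other pathway genes 12 of 64 tested were higher and 2 lower. Among 11 tested genes induced by ERK 5 were higher and none lower, including *Ccnd1* (4.39 ± 0.30), *Etv1* (0.80 ± 0.18) and *Etv5* (0.66 ± 0.19), ETS factors often used to read FGF signalling. *Etv5* was at 21.1 and 26.6 CPM for control XY and 33.1 and 45.0 for dKO XY, without overlap.

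**Figure D3:**
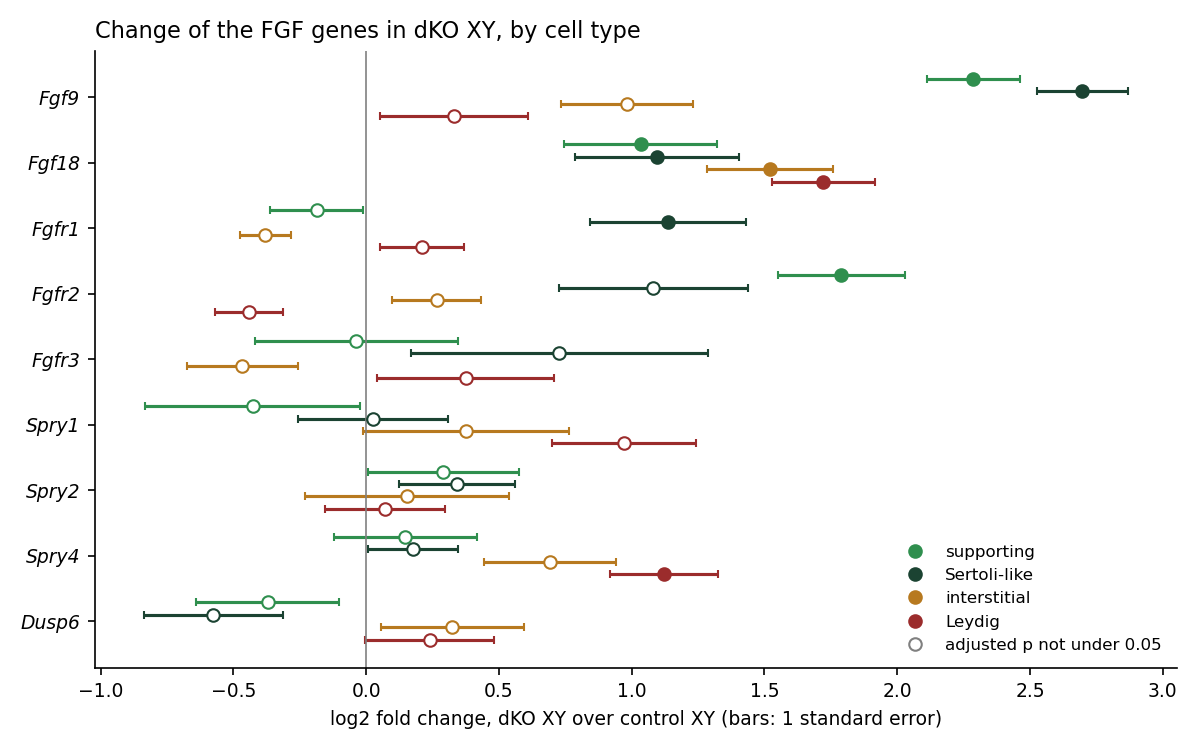
Log2 fold change of each gene in dKO XY over control XY in 4 cell populations, with bars of 1 standard error from edgeR and filled points where the adjusted p is under 0.05. *Fgf9* changes most in supporting and Sertoli-like cells, *Fgf18* is called in all 4 populations, and *Dusp6* is called in none.

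*Fgf18* also rose in interstitial and Leydig cells of dKO XY. In interstitial cells it was at 1.29 and 1.03 CPM for control XY, 3.27 and 3.42 for dKO XY and 2.47 and 3.59 for control XX. Both other groups were above control XY, with log2 changes of 1.52 ± 0.24 (adjusted p = 0.0116) and 1.47 ± 0.24 (adjusted p = 0.00325). The rise of control XX was not seen within the cluster numbered 2, led by *Il33*, *Gdf10* and *Lum*, which held nearly all of its interstitial cells. There *Fgf18* was at 5.33 and 3.57 CPM for control XY, 2.44 and 3.60 for control XX and 6.89 and 6.69 for dKO XY. In clusters 0 and 1, which held most XY interstitial cells, dKO XY was above control XY in each library. The call in dKO XY ended without the second control XY library (1.37, adjusted p = 0.0603). In Leydig cells, which make androgen and were found in XY gonads only, it went from 1.40 and 1.55 to 4.61 and 5.38 CPM (1.72 ± 0.19, adjusted p = 0.00329). Immune cells, as the background, had 0 UMIs in both control XY libraries, which allows up to 0.838 and 1.1 CPM at 3 UMIs for counting error alone, and 1.147 and 1.73 CPM for dKO XY. The interstitial and Leydig levels of dKO XY were above its immune levels, whereas the interstitial 1.03 CPM of the second control XY library lay under the limit there. Immune cells of control XX also had 0 UMIs, which allows up to 4.34 and 2.63 CPM, and the interstitial 2.47 of its first library lay under that limit too.

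*Fgf9* in interstitial cells rested at 0.628 and 0.673 CPM for control XY, 1.32 and 1.26 for dKO XY and 0.385 and 0.223 for control XX. Within cluster 2 they were 3.06 and 2.02 CPM for control XY, 2.16 and 2.15 for dKO XY and 0.36 and 0.224 for control XX, so the gap between the sexes was wider there. The levels over all interstitial cells are near those of immune cells, 0.559 and 0.366 for control XY and 1.147 and 2.08 for dKO XY, and moved in the same order of groups as *Fgf9* of supporting cells. The change in dKO XY was not called (0.98 ± 0.25, adjusted p = 0.0585, and called under 6 of 14 other settings), and control XX was lower (-1.10 ± 0.31, adjusted p = 0.0334), a call that ended in DESeq2 and without either control XY library or the second control XX library. *Fgfr1*, highest in interstitial cells, was at 73.2 and 81.6 CPM for control XY, 57.8 and 61.9 for dKO XY and 71.5 and 61.1 for control XX, with dKO XY below both control XY libraries and a change that missed the threshold (-0.38 ± 0.10, adjusted p = 0.0563). Within cluster 2 it was at 114 and 123 CPM for control XY, 95.8 and 129.8 for dKO XY and 71.6 and 61.1 for control XX, which lay below the other groups without overlap. *Fgfr3* was lower in control XX than in control XY, at 3.68 and 3.11 CPM against 6.28 and 6.47 (-0.86 ± 0.22, adjusted p = 0.0231), and missed the threshold without any 1 of the 4 libraries. Within cluster 2 the groups overlapped, at 2.53 and 3.88 CPM for control XY and 3.71 and 3.10 for control XX. In dKO XY *Fgfr3* was not called (-0.47 ± 0.21, adjusted p = 0.253) and was called lower without the second dKO XY library (-0.82, adjusted p = 0.0471).

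In interstitial cells 1 of 9 members was called in dKO XY, against 6.8% of 16982 genes and with a median of 0.32, and 3 of 9 in control XX against control XY, 1 higher and 2 lower, against 25.5% and with a median of -0.16. Most control XX interstitial cells belonged to cluster 2, which held few control XY cells, so cluster and sex move together there. Of 73 other pathway genes tested in interstitial cells, 9 were higher and 8 lower in dKO XY, beside 6.8% called over all genes. Of 11 ligands among them 1 was higher and 4 were lower. *Flrt3*, a membrane partner of FGF receptors, went from 31.0 and 31.0 CPM for control XY to 10.5 and 12.3 for dKO XY (-1.45 ± 0.12, adjusted p = 0.00196), and control XX was at 6.84 and 7.43.

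In Leydig cells 2 of 9 members were called, both higher, against 8.44% of 14486 genes, with a median of 0.33. The second was *Spry4*, from 3.20 and 2.36 CPM for control XY to 5.56 and 6.72 for dKO XY (1.12 ± 0.20, adjusted p = 0.0159), with dKO XY above control XY in both libraries. Immune cells had *Spry4* at 1.40 and 4.40 CPM for control XY and 2.29 and 4.86 for dKO XY. The Leydig level of the second control XY library lay below that of its immune cells. *Fgfr2*, which had its highest control XY level in Leydig cells, was at 48.5 and 58.7 CPM there and 35.8 and 45.0 for dKO XY, both below the controls, and was not called (-0.44 ± 0.13, adjusted p = 0.0778). Without the second dKO XY library *Fgfr2* (-0.60), *Spry1* (1.37), *Spry2* (0.42) and *Dusp6* (0.63) passed the threshold. This fit held XY libraries only, so dKO XY then had no spread of its own. *Spry1* was at 7.47 and 6.43 CPM for control XY and 18.1 and 9.74 for dKO XY. Immune cells had it at 7.54 and 12.1, and at 17.8 and 12.1 CPM. Only in the first dKO XY library did Leydig cells lie above them, by little.

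Whether dKO changed the genes differently in supporting and interstitial cells of the same libraries was tested as the difference of the 2 changes, with each library as its own block. This removes a shift that a library has in both cell types. *Dusp6* of supporting cells was 2.04 and 2.15 times that of interstitial cells in the control XY libraries, 1.36 and 1.16 times in dKO XY and 0.472 and 0.465 times in control XX. The 2 dKO XY libraries, which differed in level, had close ratios, below those of control XY and above those of control XX. The difference of the changes was -0.77 ± 0.10 on the log2 scale (adjusted p = 0.0004), -0.67 without the second dKO XY library (adjusted p = 0.00359), and -0.93 (adjusted p = 0.000168) with Sertoli-like cells in place of all supporting cells, which was added once results were known. The 2 changes behind it had opposite signs, -0.37 in supporting and 0.32 in interstitial cells, and neither was called alone.

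*Fgf9* changed more in supporting than in interstitial cells (1.26 ± 0.20, adjusted p = 0.00196), and so did *Fgfr2* (1.48 ± 0.23, adjusted p = 0.00156), whose ratio of supporting to interstitial level was 0.362 and 0.232 for control XY, 0.681 and 0.943 for dKO XY and 2.39 and 3.20 for control XX. *Spry4* went from ratios of 2.20 and 1.78 to 1.22 and 1.46 (-0.58 ± 0.17, adjusted p = 0.0374), and control XX was at 0.105 and 0.153. The log2 change of *Spry4* was 0.15 in supporting cells and 0.69 in interstitial cells, and neither was called. Its interstitial level was 6.18 and 8.52 CPM for control XY and 12.4 and 11.5 for dKO XY, so the lower ratio came with a higher interstitial level. For *Spry1* the difference was -0.86 ± 0.11 (adjusted p = 0.000583), which with Sertoli-like cells in place of supporting cells became -0.34 (adjusted p = 0.289). The changes behind it were -0.43 in supporting and 0.38 in interstitial cells, and neither was called alone. The supporting levels of *Spry1* were above the immune levels in the first control XY library only. The call of *Spry4* also ended without either control XY library, without the first dKO XY library and in DESeq2. *Spry4* (-0.50, adjusted p = 0.137) and *Fgfr2* (0.81, adjusted p = 0.129) missed the threshold with Sertoli-like cells too, while *Fgf9* and *Dusp6* kept it. In all 5 of 9 members were called, against 20.1% of 17360 genes, with medians of 0.08 and -0.03.

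**Figure D4:**
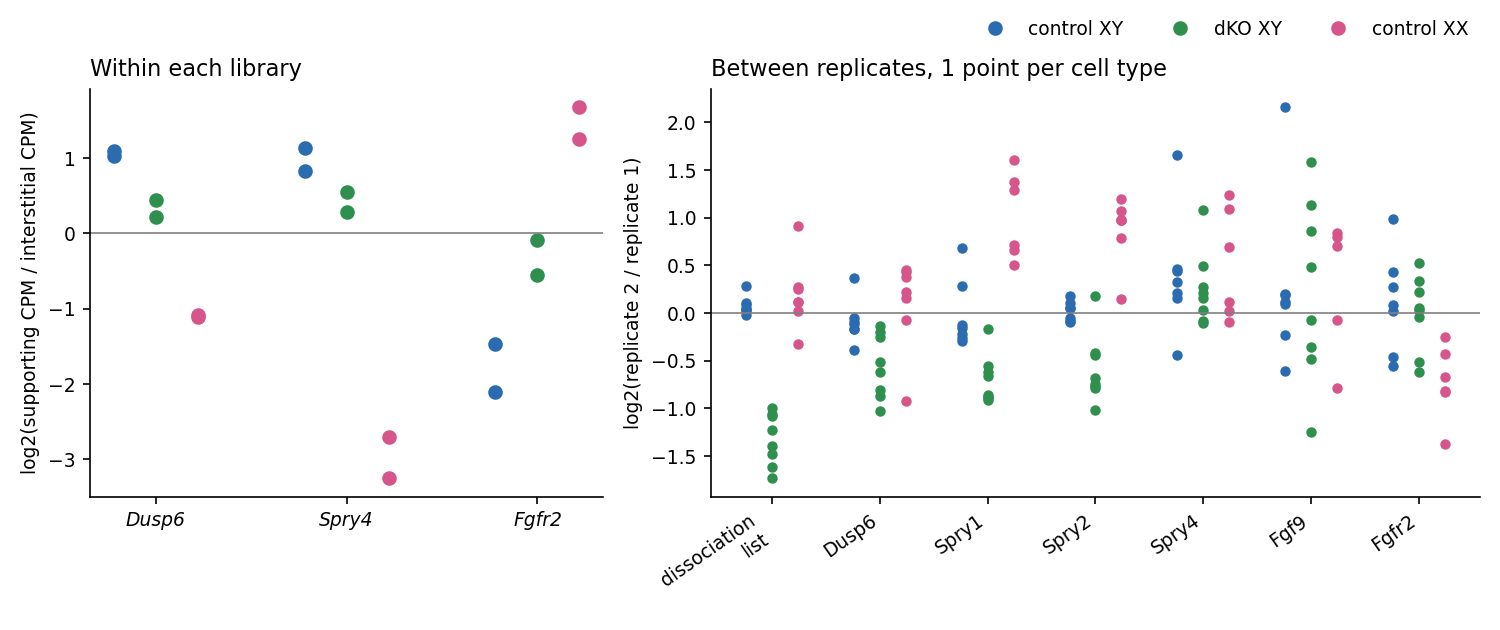
Left, log2 ratio of the supporting to the interstitial level of *Dusp6*, *Spry4* and *Fgfr2* in each library, in which dKO XY lies between control XY and control XX. Right, log2 ratio of replicate 2 to replicate 1 of each group, with 1 point per cell type other than erythroid cells, for the dissociation list and 6 genes, in which the list, *Dusp6* and *Spry1* of dKO XY are below 0 in all 8 cell types.

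The second dKO XY library was lower than the first in *Dusp6* and *Spry1* in all 8 cell types compared and in *Spry2* in 7 of 8, with median ratios of 0.677, 0.593 and 0.611. The dissociation list had a median ratio of 0.405 in the same pair. Between the control XX libraries *Spry1* and *Spry2* were higher in the second in every cell type, 7 and 8 of them, with medians of 2.44 and 1.97, while the list had a median ratio of 1.14. *Spry4* was lower in the second dKO XY library in 2 of 8 cell types. The part of dissociation in the spread of these genes was not tested.

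Across cell types, *Fgf18* was highest in the surface epithelium of every group, and *Fgf9* in that of both control groups. Epithelial cells, led by *Upk3b*, *Krt19* and *Muc16*, had *Fgf9* at 129 and 110 CPM for control XY, 41.9 and 30.1 for dKO XY and 18.8 and 32.7 for control XX. Control XY stood above both other groups, which overlapped each other, and its values rest on 30 and 40 cells and 321 UMIs in all. The 7 epithelial markers summed to 1662 and 1397 CPM for control XY, 1357 and 871 for dKO XY and 1210 and 1288 for control XX, with none at 0. The 8 interstitial markers in the same cells summed to 4813 and 4563, 1133 and 1409, and 950 and 2793 CPM. The difference in *Fgf9* between groups was not tested, nor was the part of these markers in it. In dKO XY the epithelial and supporting levels of *Fgf9* overlapped. *Fgf18* of the epithelium had means of 36.1 ± 8.33 (SD, n = 2), 33.4 ± 7.80 and 22.7 ± 4.41 CPM, and supporting cells came next without overlap.

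The receptors had different homes. *Fgfr1* was highest in interstitial cells of all 3 groups, at 77.4 ± 5.98, 59.8 ± 2.915 and 66.3 ± 7.32 CPM, ahead of endothelial and epithelial cells, which overlapped each other in dKO XY and control XX. *Fgfr2* changed its leading cell type with the group: Leydig cells in control XY (53.6 ± 7.204), the epithelium in dKO XY (60.1 ± 6.35) and supporting cells in control XX (90.9 ± 11.3), where the epithelium overlapped at 57.5 ± 35.9. In epithelial cells *Fgfr2* was at 9.42 and 18.6 CPM for control XY, 55.6 and 64.5 for dKO XY and 82.9 and 32.1 for control XX, with control XY lowest and the other groups overlapping. The summed granulosa markers moved with it in these cells, at 328 and 299 CPM for control XY, 671 and 560 for dKO XY and 772 and 394 for control XX. The germ markers were at 1.71 and 3.21, 50.3 and 206, and 10.8 and 6.46 CPM, and the part of either list was not tested. *Fgfr3* was highest in germ cells of dKO XY (7.56 ± 1.97) and control XX (8.65 ± 2.98) and in interstitial cells of control XY (6.38 ± 0.13). Germ cells of control XY had 4.04 CPM from 2 UMIs of 15 cells in the first library, too few to place them in this order. The second held 7 germ cells, under the minimum of 10.

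The Sprouty genes were highest in pericytes, the contractile cells around small vessels, in all 3 groups, and *Dusp6* in endothelial cells. *Spry1* of pericytes measured 229 ± 17.6, 171 ± 51.3 and 290 ± 92.6 CPM, *Spry2* 140 ± 11.9, 111 ± 22.6 and 292 ± 134, and *Spry4* 71.1 ± 11.2, 56.2 ± 2.30 and 123 ± 5.47, for control XY, dKO XY and control XX. Control XX pericytes were higher than those of control XY in *Spry2* (1.153 ± 0.25, adjusted p = 0.0104) and *Spry4* (0.84 ± 0.15, adjusted p = 0.00295), 2 of 7 members tested against 7.83% of 11985 genes. Both calls ended without the first control XY library, and that of *Spry2* without the second control XX library. *Dusp6* of endothelial cells measured 187 ± 33.2, 173 ± 11.9 and 228 ± 24.3 CPM.

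In endothelial cells of control XX 2 of 7 members tested were lower than in control XY, *Spry4* at 27.4 and 27.9 CPM against 44.2 and 60.1 (-0.89 ± 0.17, adjusted p = 0.0106, lost without the second control XY or the first control XX library) and *Fgfr1* (-0.68 ± 0.17, adjusted p = 0.0428), against 4.78% of 12062 genes, and the call of *Fgfr1* ended without any 1 of the 4 libraries. Between dKO XY and control XY edgeR called 0 of 7 members in endothelial cells, where 0.531% of genes were called, and 0 of 7 in pericytes, where 0.275% were. DESeq2 called none in either. At an unadjusted p under 0.05, edgeR had 2 and 1 members and DESeq2 1 and 0.

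**Figure D5:**
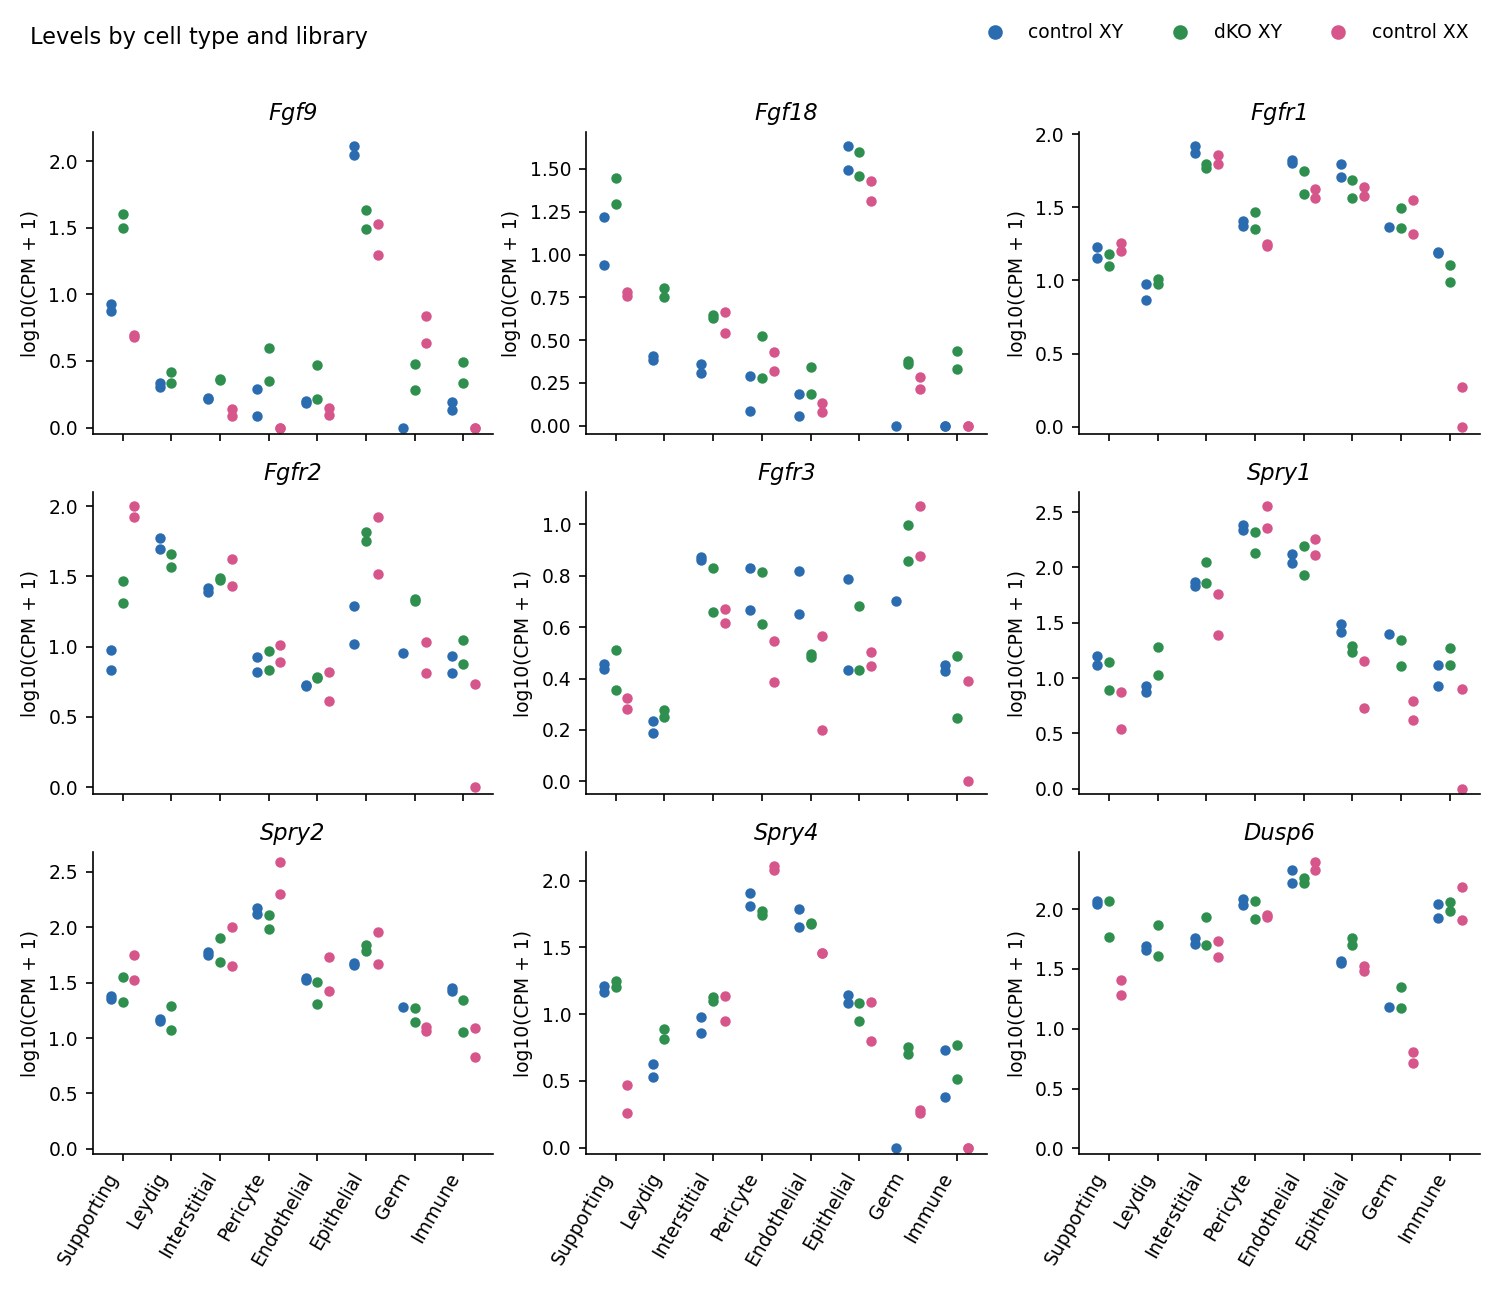
Level of each gene as log10(CPM + 1) in 8 cell types, with 1 point per library of at least 10 cells, coloured by group. *Fgf18* is highest in epithelial cells, as is *Fgf9* except in the second dKO XY library, where supporting cells are at 30.3 and epithelial cells at 30.1 CPM, *Fgfr1* in interstitial cells, the Sprouty genes in pericytes and *Dusp6* in endothelial cells.

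Germ cells were compared between dKO XY, with 413 and 278 cells, and control XX, with 258 and 228, since control XY gave 15 and 7. They were in different states: *Sycp3*, of the meiotic chromosome axis, was at 221 and 209 CPM for dKO XY and 1793 and 2529 for control XX, and *Pou5f1*, a pluripotency factor, at 339 and 291 against 47.5 and 24.1. Of the 4 feedback members *Spry1*, *Spry4* and *Dusp6* were higher in dKO XY germ cells and *Spry2* was not called (0.53 ± 0.24, adjusted p = 0.0602, and 0.75 with adjusted p = 0.0339 without the second dKO XY library). *Dusp6* was at 21.5 and 14.0 CPM against 4.14 and 5.39 (1.99 ± 0.27, adjusted p = 2.33e-08), *Spry1* at 21.3 and 11.7 against 3.21 and 5.26 (2.06 ± 0.29, adjusted p = 4.56e-08) and *Spry4* at 4.03 and 4.67 against 0.828 and 0.899 (2.38 ± 0.46, adjusted p = 2.02e-05).

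No values of the 3 genes overlapped between the groups. *Fgfr2* was at 20.7 and 20.1 CPM for dKO XY and 9.73 and 5.52 for control XX (1.48 ± 0.25, adjusted p = 2.03e-06). Immune cells of dKO XY had *Spry1* at 17.8 and 12.1 CPM and *Spry4* at 2.29 and 4.86. In the second library the germ cell levels of both genes lay below the immune ones. The control XX germ cell levels of *Spry4* lay under the 4.34 and 2.63 CPM that 0 UMIs allow in immune cells of control XX. Those of *Spry1* lay under the same 4.34 CPM in the first library and under the immune 7.02 CPM in the second. *Fgf9* went the other way, at 0.909 and 1.99 against 3.31 and 5.91 CPM (-1.65 ± 0.43, adjusted p = 0.00127). The dKO XY values lay below those of dKO XY immune cells, 1.147 and 2.08 CPM, and the first control XX value lay under the 4.34 CPM that 0 UMIs allow in its immune cells. That call ended with all variable genes, at a log2 change of 0.07 (adjusted p = 0.884), and it also ended in DESeq2 and without the first dKO XY or the second control XX library. The change of 0.07 came when all variable genes were used and 439 and 312 dKO XY cells were grouped as germ cells. In all 5 of 9 members were called, 4 higher and 1 lower, where 49.8% of 14636 genes were, with a median of 0.81 over the 9 and 0.02 over all genes. Among the other pathway genes the same cells of dKO XY had more *Etv5* (2.99), *Il17rd*, an FGF antagonist of the membrane (2.58), and *Spred2*, a RAS pathway inhibitor (2.18), all by log2 change and with adjusted p under the threshold in edgeR.

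The likeness of the members to each other and to other genes was read over 48 sums of library and cell type, which share libraries and depth and are a description. *Fgf9* and *Fgf18* had a Pearson r of 0.85, *Spry1* and *Spry4* of 0.78 and *Spry1* and *Spry2* of 0.72, whereas *Fgf9* had an r of -0.14 with *Dusp6* and 0.50 with *Fgfr2*. Of 6525 genes searched, *Fgf9* was most like *Cd2ap* (0.83), *Usp53* (0.82) and *Bex2* (0.81), and *Fgf18* like *Bex2* (0.88), *Pigyl* (0.85) and *Ptprf* (0.84). The closest to *Fgfr1* was *Hmcn1* (0.94), to *Fgfr2* *Igfbp2* (0.83), to *Fgfr3* *Usp42* (0.84) and to *Dusp6* *Pea15a* (0.93). *Spry1* was closest to *Gng11* (0.90), *Spry2* to *Ccdc80* (0.89) and *Spry4* to *Tinagl1* (0.87).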

How the data were processed

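Cells of 6 gonad libraries were profiled by droplet single-cell RNA sequencing. The deposited matrices hold raw UMI counts per gene and barcode, which the authors made with Cell Ranger on mm10 and corrected for barcode swapping. The labels name Seurat 4.0 for later steps. No strand or multi-mapping setting is given in the sources used here.

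Kept cells had between 2500 and 9000 genes, under 25% mitochondrial and under 20% Hbb UMIs. Seurat 5.3.0 clustered them on 3000 variable genes without the FGF genes, 20 principal components and resolution 0.21. Supporting cells were clustered again at resolution 0.25 on the first 8 of the same components, which were computed over all cells. Clusters were named from marker lists. Scrublet, run in scanpy 1.11.5, marked 0 to 71 cells per library and did not work, so cells stayed in and an alternative left out the top 8% of scores.

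For each library, raw UMIs of a cell type with at least 10 cells were added up. edgeR 4.0.16 tested the sums by its quasi-likelihood test with filterByExpr and TMM scaling, Benjamini-Hochberg adjustment over all genes tested and a threshold of 0.05. The standard error is the log2 fold change over the square root of F. DESeq2 1.42.0 was an alternative, beside other scaling, no filter, a replicate block, other cell filters and leaving out each library. The fits of Sertoli-like and Leydig cells held XY libraries only, so leaving out a library left 1 in its group. The scripts were tested on simulated data. With 2 libraries per group an exact permutation test of 1 value cannot go below p = 0.333.

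The members and lists were chosen with earlier results of these data known. Genes named were drawn from the 9 members, called pathway genes whose mean log2 CPM reached 4, up to 8 in each direction, and the 3 genes most like each member. Not every gene that met this rule is named. Replicate numbers pair nothing by their labels, and same-numbered libraries had correlations of deviations of 0.19, -0.34 and -0.40. The limits that 0 UMIs allow cover counting error only, while standard errors and SDs include the spread between libraries. Coordinates are of mm10, and promoters, matched for 7 of 9 members, are of RefSeq GRCm38.p6.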

Additional observations from a re-analysis of the deposited data

Results flagged for a closer look

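5 genes changed differently in supporting and interstitial cells of dKO XY by the test of the difference itself (edgeR's quasi-likelihood test, 2 libraries per group, Benjamini-Hochberg adjustment). The difference was 1.26 for *Fgf9*, 1.48 for *Fgfr2*, -0.86 for *Spry1*, -0.58 for *Spry4* and -0.77 for *Dusp6*, on the log2 scale. With Sertoli-like cells in place of all supporting cells, which was chosen after the data were seen, *Fgf9* (1.73, adjusted p = 0.000149) and *Dusp6* (-0.93, adjusted p = 0.000168) passed the threshold. *Fgfr2* (0.81), *Spry1* (-0.34) and *Spry4* (-0.50) did not, and *Fgfr1* then did (1.505, adjusted p = 0.001). The interstitial markers in supporting cells, at 793 and 930 CPM in control XY and 484 and 401 in dKO XY, were at 184 and 270 and at 210 and 183 in Sertoli-like cells, and their part in these differences was not tested.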

How the results depend on the processing

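Of 524 recomputed values of called genes, 474 stayed on their side of the threshold, 49 lost the call and 1 reversed, *Fgf9* in germ cells, from -1.65 to 0.0709 with all variable genes. Of 933 values not called, 57 passed the threshold under another setting. The *Fgf9* rise in supporting cells was called in 14 of 14 settings (2.12 to 2.43), as was that of *Fgfr2* (1.48 to 2.41).

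Members called in Sertoli-like cells (3) numbered 5 with no filter and 1 to 5 leaving out a library. In interstitial cells of dKO XY (1) they numbered 2 in DESeq2, 4 with no filter, 3 with only the 2 groups, 3 with cells of more than 1500 genes, 2 with all variable genes and 0 to 3 leaving out a library, and in control XX (3) 1 to 3 leaving out a library. In Leydig cells (2) they numbered 4 in DESeq2, with no filter, with the replicate block and without doublets, and 2 to 6 leaving out a library. In endothelial cells of control XX (2) they numbered 1 in DESeq2 and with cells of more than 1500 genes, and 0 to 2 leaving out a library. In pericytes of control XX (2) they numbered 1 in DESeq2 and 0 to 2 leaving out a library. For the difference between cell types (5) they numbered 3 with Sertoli-like cells. The causes were not tested.

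With the replicate block, 3 members were called in supporting cells of dKO XY and 4 in Sertoli-like cells, where *Dusp6* was then called (-0.67, adjusted p = 0.0342), and *Spry1* (0.91) and *Fgfr2* (-0.44) were called in Leydig cells. The libraries share only a number.

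Counts over all genes ranged from 1170 to 3597 around 2673 in supporting cells of dKO XY, from 1118 to 2735 around 2012 in Sertoli-like cells, from 314 to 1696 around 1154 in interstitial cells of dKO XY, from 2645 to 4785 around 4325 in those of control XX and from 654 to 2625 around 1223 in Leydig cells. They ranged from 17 to 368 around 64 and from 144 to 1120 around 577 in endothelial cells of dKO XY and control XX, from 9 to 223 around 33 and from 443 to 1373 around 938 in pericytes, from 4532 to 7573 around 7294 in germ cells and from 1919 to 4156 around 3492 for the difference between cell types. Depth limits *Fgf9* and *Fgf18* outside supporting and epithelial cells, where immune cells held 0 to 6 UMIs per library.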

Other observations

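Of the other pathway genes, germ cells of dKO XY had 22 of 69 tested higher and 10 lower than those of control XX, beside 49.8% of all genes called there, so the share is no result about the pathway. Among them were *Sdc4*, a syndecan core protein (2.76), and *Hs6st2*, a heparan sulfate 6-O-sulfotransferase (1.24), higher, and *Glce*, the glucuronic acid epimerase, lower (-1.48), as log2 changes in edgeR. In Leydig cells *Hs6st2* (1.14) and *Gpc3*, a glypican (0.95), rose in dKO XY against control XY, and *Gpc1* was lower (-0.57).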
